A study of Mus musculus with 3 samples.

Results

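Fos, Fosb, Fosl1, Fosl2, Jun, Junb, Jund, Egr1, Atf3 and Ier2 were followed across the cell populations of 3 droplet single cell RNA libraries from long bones of 3-week-old mice. They are 10 of the 55422 genes in the deposited count tables and were matched there by symbol. Fos and Jun proteins pair through leucine zippers to form AP-1, a transcription factor complex that binds short DNA sites in promoters and enhancers. Most of these genes are immediate early genes. They are transcribed within minutes after growth factor, stress or mechanical signals, without new protein synthesis, and their RNA decays fast. In bone, Fos is required for osteoclast formation, and AP-1 members are known regulators of osteoblasts and chondrocytes. They are also known to be induced by enzymatic digestion of tissue.

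Both metaphyseal libraries, replicates 1 and 2, came from untreated C57BL/6 males. Metaphyseal bone was digested with collagenase, and haematopoietic cells were removed with magnetic beads by lineage depletion followed by CD45 and CD117 depletion, so these cells were not sorted. The third library held cells of untreated males heterozygous for Pdgfra-H2B-GFP, a nuclear reporter driven from the Pdgfra locus, taken from the metaphysis and epiphysis region after the same kind of digestion and sorted by FACS as GFP+ and alive. Sorting, reporter genotype, dissected region, bead depletion and sequencing depth all differ between these 2 preparations and cannot be told apart, and with 1 Pdgfra-GFP library that preparation has no replicate. The sources do not say whether replicates 1 and 2 came from separate animals, so the spread behind every p-value may be technical. Between preparations it is a spread between these libraries, largely borrowed across genes. Between populations it is what remains in a joint model of all populations after differences between libraries are taken out.

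The metaphyseal libraries held 25243314 and 22082735 UMIs (unique molecular identifiers, each a captured RNA molecule) and the Pdgfra-GFP library 91747759, and 2382, 2004 and 11242 cells were kept, with medians of 6257, 6426 and 5330 UMIs. H2B-GFP was at 0 UMIs in both metaphyseal libraries and at 7435 UMIs, or 98.7 CPM (UMIs per 1000000 UMIs), in the Pdgfra-GFP library. A UMI of H2B-GFP was seen in 29.0% of the cells of the Pdgfra-GFP library. The median mitochondrial share was 3.71% and 3.80% of UMIs in metaphyseal cells and 0.903% in Pdgfra-GFP cells. Cells were gated into 13 populations by marker lists, and 15084 of 15628 cells received a name. Populations carry "-like" names for septoclasts (SC), metaphyseal and diaphyseal mesenchymal stromal cells (mpMSC and dpMSC), osteoblastic cells (OB), endothelial cells (EC) and others. All markers of a list were highest in their own population for 10 of the 13 populations. The exceptions were SC-like cells with 6 of 7 markers, mpMSC-like cells with 5 of 7 and haematopoietic-like cells with 3 of 6. Although labelled as mesenchymal stromal cells, the metaphyseal libraries held 1122 and 891 EC-like cells, which was 47.1% and 44.5% of their cells. Kept cells of the Pdgfra-GFP library shared 9 and 10 barcodes with the metaphyseal libraries, against 3.94 and 3.32 if barcodes were drawn independently, and the metaphyseal libraries shared 0.

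The 150 bases before the RefSeq start are shown for Fos, Fosb, Jun and Junb as examples. Jund, Atf3 and Fosl2 also fell between the preparations in dpMSC-like cells but are not shown. Matches on either strand to TGACG (the first letters of a CRE, the CREB site), CCAAT or TATAAA are in capitals. The Jund and Fosl2 windows hold none of these matches. Windows follow RefSeq starts, which can lie apart from the gene positions given below. The Jund window, chr8:70697589-70697738, ends well before the start given there, 70698949. The Fosl2 window, chr5:32136322-32136471, lies past the start given there, 32135801. The Atf3 window, chr1:191183334-191183483 on the minus strand, lies inside the gene, far past its start on that strand, 191218039. All of these windows are counted among those read. The bases of the genes shown are:
Fos, chr12:85473740-85473889, GRCm38.p6, plus strand: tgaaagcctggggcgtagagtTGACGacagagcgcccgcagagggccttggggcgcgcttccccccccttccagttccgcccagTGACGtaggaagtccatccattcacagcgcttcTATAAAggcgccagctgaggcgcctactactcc
Fosb, chr7:19310046-19310195, GRCm38.p6, minus strand: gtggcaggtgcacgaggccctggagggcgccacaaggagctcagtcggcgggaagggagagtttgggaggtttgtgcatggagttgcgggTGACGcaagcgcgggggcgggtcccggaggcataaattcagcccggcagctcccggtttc
Jun, chr4:95052223-95052372, GRCm38.p6, minus strand: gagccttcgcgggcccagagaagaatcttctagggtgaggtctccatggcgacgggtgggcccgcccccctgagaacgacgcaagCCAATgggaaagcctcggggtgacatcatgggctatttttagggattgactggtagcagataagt
Junb, chr8:84978749-84978898, GRCm38.p6, minus strand: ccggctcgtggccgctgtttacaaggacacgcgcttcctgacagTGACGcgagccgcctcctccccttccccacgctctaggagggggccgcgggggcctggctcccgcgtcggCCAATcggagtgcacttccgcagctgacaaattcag

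Windows of 7 of the 10 genes were read, without Egr1, Fosl1 and Ier2. Entries on chromosome 18, where Egr1 lies, were left out for the members but kept in the shares of all promoters. The counts below therefore say nothing of Egr1. TGACG matched in 4 of these 7 windows (Fos, Fosb, Junb and, in its window inside the gene, Atf3), against 13.3% of all 32851 promoters of the same length. In the Fos window it lies at bases -66 to -62 and -129 to -125 before the start, and TATAAA lies at -33 to -28. CCAAT matched in 2 of 7 (24.5% of all promoters) and GGGCGG, which is not capitalised, in 5 of 7 (28.6%). The whole CRE TGACGTCA (1.36% of all promoters), the AP-1 site TGANTCA (4.24%) and the CArG box (0.916%), the site of serum response factor, matched in 0 of the 7. A match is a description of letters in this window and not evidence of binding.

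In the Gencode M21 annotation of GRCm38, the build to which the authors aligned, all 10 genes are protein coding. Fos lies on chromosome 12 (85473890 to 85477273, plus strand), Fosb on chromosome 7 (19302696 to 19310051, minus strand), Fosl1 on chromosome 19 (5447547 to 5455946, plus strand) and Fosl2 on chromosome 5 (32135801 to 32157842, plus strand). Jun lies on chromosome 4 (95049034 to 95052222, minus strand) and has a single exon, as does Jund on chromosome 8 (70698949 to 70700616, plus strand). Junb (84974484 to 84978718, minus strand) and Ier2 (84661331 to 84662852, minus strand) are on the same chromosome as Jund. Egr1 lies on chromosome 18 (34859823 to 34864984, plus strand) and Atf3 on chromosome 1 (191170296 to 191218039, minus strand).

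For Fos, the founding member of its family, levels ran from 30.6 to 4016 CPM over populations and libraries. Counts were taken at the 3′ end of transcripts, so CPM is not divided by gene length. In dpMSC-like cells Fos was at 1984 and 1908 CPM in metaphyseal replicates 1 and 2 and at 507 CPM in the Pdgfra-GFP library. OB-like cells had 1799, 1746 and 615 CPM in the same order. In both populations the Pdgfra-GFP library lay below both metaphyseal libraries, and the spread between the replicates was small beside that gap. In mpMSC-like cells Fos was lower in all 3 libraries, at 769, 679 and 353 CPM. EC-like cells had 941, 961 and 775 CPM. The Pdgfra-GFP library was again the lowest in EC-like cells, but the gap was much narrower there. Of the populations with at least 10 cells in every library, chondrocyte-like cells had the highest level in each, with 4016, 3655 and 1479 CPM, from 44 and 38 metaphyseal and 1754 Pdgfra-GFP cells. In the Pdgfra-GFP library alone, 55 macrophage-like cells lay above them, with 1953 CPM of Fos. B-lineage-like cells were the lowest of the populations measured in all libraries, with 30.6, 62.2 and 98.1 CPM. Between these ends, dpMSC-like and OB-like cells did not keep the same order in every library. SC-like cells, with 11, 10 and 182 cells, had 661, 1892 and 571 CPM, so metaphyseal replicate 2 stood far above replicate 1.

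Fosb, a close relative of Fos, was at 397, 392 and 66.7 CPM in dpMSC-like cells and at 355, 382 and 80.4 CPM in OB-like cells. The 2 metaphyseal libraries were nearly equal in each population and the Pdgfra-GFP library lay far below them. Fosl2, which encodes Fra-2, was low in dpMSC-like cells at 16.2, 16.2 and 8.35 CPM. It was higher in EC-like cells, at 63.8, 61.0 and 45.2 CPM, and highest in haematopoietic-like cells, at 159, 197 and 113 CPM. In each library the 3 populations kept this order. Fosl1, which encodes Fra-1, was barely detected in dpMSC-like cells, with 0, 1 and 3 UMIs in all cells of that population in the 3 libraries, where 0 of 4385269 UMIs allows up to 0.684 CPM, the level of 3 UMIs. It reached 40.8, 67.4 and 10.5 CPM in haematopoietic-like cells, from 18, 13 and 13 UMIs.

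Jun, the main partner of Fos, was at 1268, 1178 and 281 CPM in dpMSC-like cells and at 917, 717 and 176 CPM in OB-like cells. Chondrocyte-like cells had 4125, 2550 and 603 CPM, the highest Jun in every library, although the 2 metaphyseal replicates differed widely there. Junb, whose protein pairs with Fos as Jun does, was at 978, 861 and 316 CPM in dpMSC-like cells. In EC-like cells Junb was at 756, 724 and 775 CPM, so the Pdgfra-GFP library was the highest of the 3. Jund, which unlike Jun and Junb is known for steady transcription in many cells, was at 1284, 1182 and 306 CPM in dpMSC-like cells. B-lineage-like cells, which held the least Fos, had among the highest Jund levels, at 1580, 1461 and 508 CPM. Jund made up 58.4%, 64.2% and 37.1% of the UMIs of the 10 genes in B-lineage-like cells, against 19.7%, 19.1% and 17.3% in dpMSC-like cells.

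Egr1, a zinc finger factor induced by growth factors through the MAP kinases, was at 433, 468 and 145 CPM in dpMSC-like cells and 437, 420 and 108 CPM in OB-like cells. EC-like cells had 62.5, 80.9 and 56.7 CPM, below both of those populations in each library. Atf3, a stress-induced partner of Jun proteins, was low in dpMSC-like cells at 17.6, 23.8 and 7.94 CPM. OB-like cells had 228, 152 and 25.8 CPM and chondrocyte-like cells 1438, 705 and 77.3 CPM. For Atf3 the Pdgfra-GFP library lay far below both metaphyseal libraries in OB-like and chondrocyte-like cells, and the 2 metaphyseal replicates were also spread apart. Ier2, a small nuclear protein, was at 151, 153 and 134 CPM in dpMSC-like cells, and unlike Fos its 3 libraries lay close together. In EC-like cells Ier2 was at 330, 303 and 495 CPM, with the Pdgfra-GFP library above both others.

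**Figure D1:**
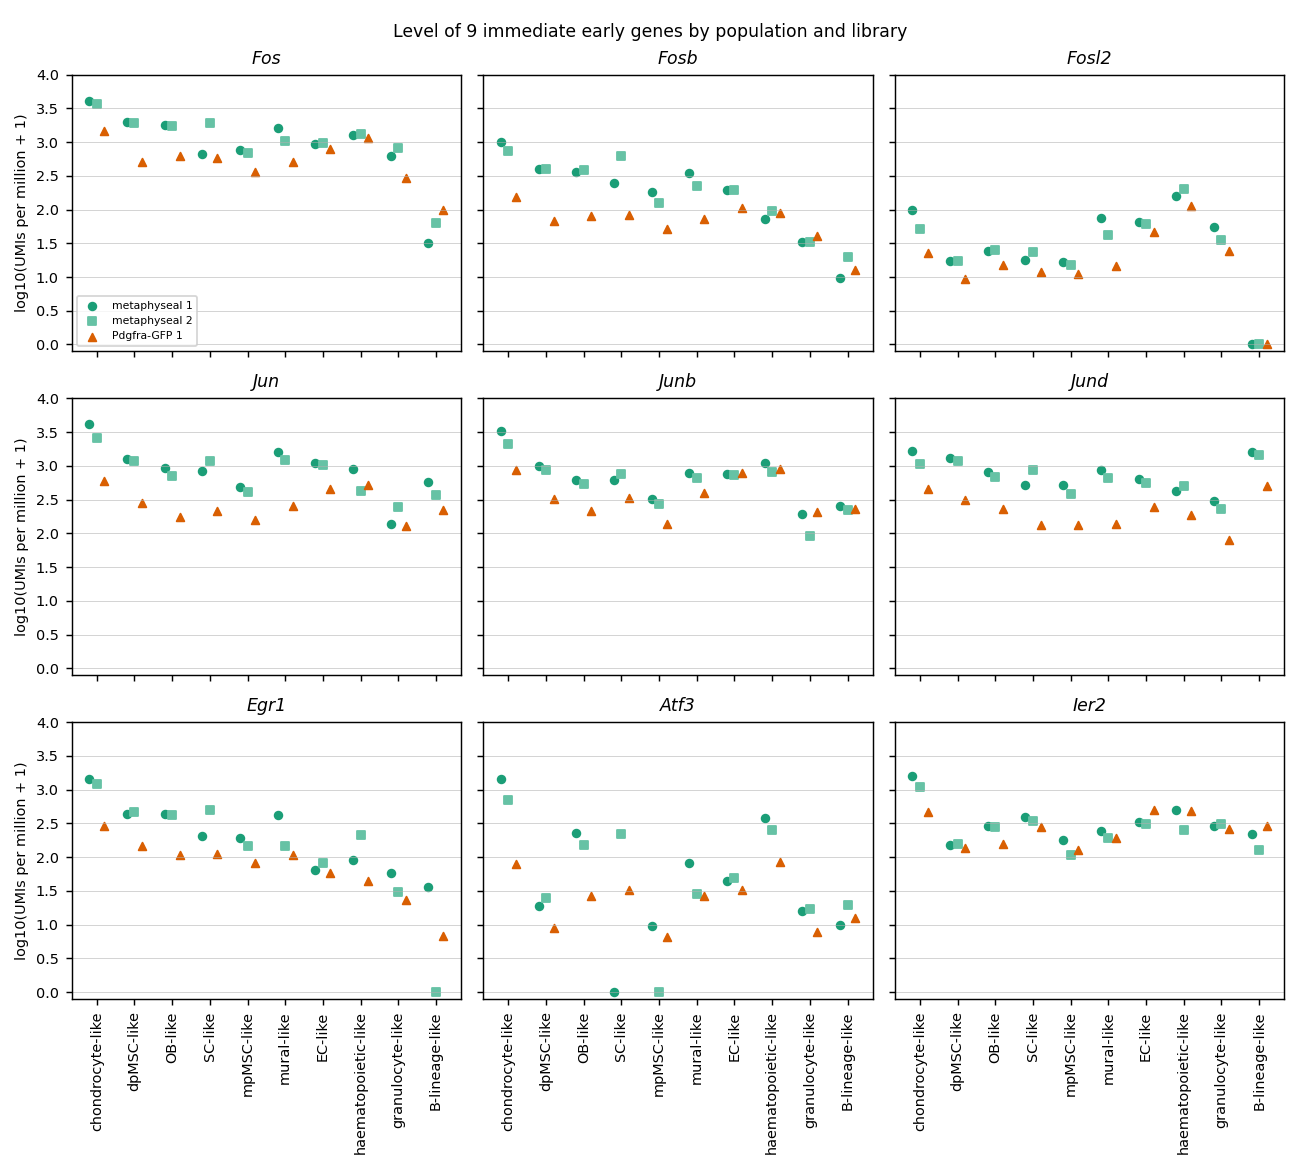
Level of 9 of the genes (Fosl1 left out for its low counts) as log10(CPM + 1) in the 10 populations with at least 10 cells in every library, with 1 point per library. Circles and squares are metaphyseal replicates 1 and 2 and triangles the Pdgfra-GFP library; in dpMSC-like cells Fos stood at 1984 and 1908 CPM in the metaphyseal libraries and at 507 CPM in the Pdgfra-GFP library, while Ier2 stood at 151, 153 and 134 CPM.

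Free RNA was measured in near-empty barcodes with at most 100 UMIs, which held 8.51%, 9.92% and 7.24% of the UMIs of the 3 libraries. Fos was at 1098, 1153 and 817 CPM there, against 1481, 1490 and 728 CPM over all kept cells. The free RNA therefore held Fos at nearly the level of cells, and in the Pdgfra-GFP library above it. Atf3 was at 128, 112 and 49.4 CPM in near-empty barcodes, which is above its level in dpMSC-like cells of the same libraries and below that of OB-like cells in both metaphyseal libraries. The part of free RNA in the levels per population was not tested.

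Per cell, the 10 genes were unevenly spread. In dpMSC-like cells they made up a median of 0.237% and 0.180% of a cell's UMIs in the metaphyseal libraries and 0.0916% in the Pdgfra-GFP library. The 90th percentiles were 1.88%, 1.87% and 0.472%, so a minority of metaphyseal cells carried shares far above the median. No UMI of any of the 10 genes was found in 33, 40 and 585 of the 742, 683 and 4303 dpMSC-like cells. Chondrocyte-like cells of the metaphyseal libraries had medians of 1.13% and 1.20%, against 0.188% in the Pdgfra-GFP library. EC-like cells had medians of 0.153%, 0.136% and 0.160%, with the Pdgfra-GFP library the highest, but their 90th percentiles were 1.13%, 1.11% and 0.681% and their pooled shares 0.410%, 0.393% and 0.298%, with the Pdgfra-GFP library the lowest.

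**Figure D2:**
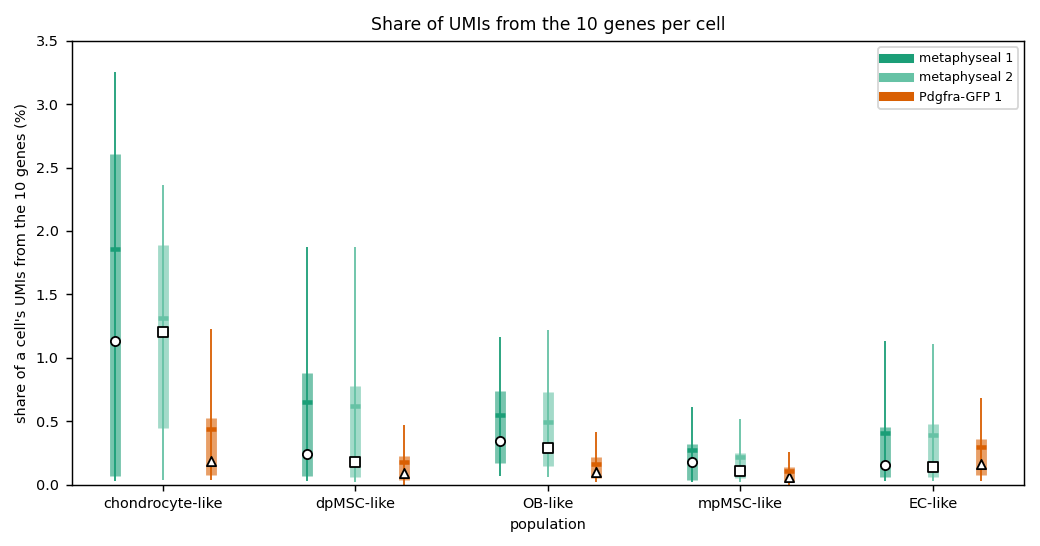
Share of a cell's UMIs that came from the 10 genes, in percent, in 5 populations and 3 libraries. White symbols are medians over cells, thick bars span the 25th to 75th and thin lines the 10th to 90th percentile, and coloured dashes are the pooled share; in dpMSC-like cells the pooled share was 0.653% and 0.618% in the metaphyseal libraries and 0.177% in the Pdgfra-GFP library.

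The share of cells with a UMI of a gene depends on depth, and dpMSC-like cells had medians of 5674, 5737 and 3628 UMIs. Jund was seen in 87.6%, 85.9% and 57.4% of dpMSC-like cells. With every cell thinned at random to 2000 UMIs, and 0, 0 and 291 shallower cells left out, these shares were 71.7% (exact binomial 95% interval 68.3 to 74.9), 66.8% (63.1 to 70.3) and 40.4% (38.9 to 41.9). The intervals of the metaphyseal libraries do not overlap that of the Pdgfra-GFP library, and they cover counting error only. For Fos the thinned shares were 50.3%, 47.9% and 37.3%, and for Ier2 they were 16.3%, 16.1% and 16.3%. No population is known to lack Fos, but in B-lineage-like cells, with medians of 5071, 5664 and 3168 UMIs, the thinned share was 9.76%, 7.41% and 7.32%. The Fos level in dpMSC-like cells was 1946 CPM on average in the metaphyseal libraries and 507 CPM in the Pdgfra-GFP library. A share of cells is bounded and a level is not, so their falls between preparations are unlike measures.

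The preparations were compared within a population to see which genes differed between sorted and depleted cells of a like kind. In dpMSC-like cells 8 of the 9 genes tested were lower in the Pdgfra-GFP library, beside 22.6% of all 12945 genes tested that were lower (24.8% were higher and 47.5% called in all). Fos fell by 1.77 on the log2 scale (SE 0.07) with an adjusted p of 3.42e-10 in the quasi-likelihood test of edgeR, adjusted by Benjamini-Hochberg. Fosb fell by 2.39 (SE 0.11), the largest fall of the 9, Jun by 1.95 (SE 0.08) and Jund by 1.84 (SE 0.08). Egr1 fell by 1.47 (SE 0.11), Junb by 1.37 (SE 0.09), Atf3 by 1.20 (SE 0.20) and Fosl2 by 0.78 (SE 0.19). The exception was Ier2, with a log2 fold change of -0.01 (SE 0.10, adjusted p = 0.919 in the same edgeR test), and Fosl1 was too low to test. The fit had 3 libraries, and the lone Pdgfra-GFP library was assumed to vary as the metaphyseal ones do. With either metaphyseal library alone the log2 ratio of Fos was -1.77 and -1.79.

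In OB-like cells all 9 genes tested were lower in the Pdgfra-GFP library, beside 14.1% of all 11383 genes (19.0% were higher and 33.1% called in all). The largest fall was that of Atf3, by 2.52 (SE 0.14) on the log2 scale, and Jun fell by 1.85 (SE 0.14), with Fosb and Egr1 next. With metaphyseal replicate 2 or replicate 1 alone the log2 ratio of Atf3 was -2.23 or -2.76 and that of Jun -1.70 or -2.01. For Egr1 it was -1.64 or -1.65. The SE, largely borrowed across genes, does not reflect the spread of Atf3 between the metaphyseal replicates. Fos fell by 1.17 (SE 0.14) with an adjusted p of 2.29e-15 in edgeR (quasi-likelihood, Benjamini-Hochberg adjustment). Ier2 fell by 0.50 (SE 0.12), unlike in dpMSC-like cells. Fosl2 fell by 0.42 (SE 0.17, adjusted p = 0.0429 by the same edgeR test), and its adjusted p ranged from 0.0270 to 0.775 over the alternatives. In mpMSC-like cells 6 of the 8 genes tested were lower, beside 8.86% of all 8835 genes (9.03% were higher and 17.9% called in all). Jund fell by 1.74 (SE 0.20) and Fosb by 1.55 (SE 0.19), while Jun, Junb, Egr1 and Fos had log2 fold changes of -1.47, -1.10, -1.04 and -0.996. Ier2 (log2 fold change -0.15, SE 0.18) and Fosl2 (-0.56, SE 0.50) did not pass the threshold, and Atf3 and Fosl1 were too low to test. DESeq2 called 7 of the 9 genes in dpMSC-like cells, 7 of 9 in OB-like cells and 5 of 8 in mpMSC-like cells, all of them lower. Over all genes it called 759 of 12945, 206 of 11383 and 78 of 8835 lower in the same order. An alternative chosen after seeing the data kept cells of at most 2% mitochondrial UMIs. It left 80 and 55 metaphyseal dpMSC-like cells. With it 8 of 9 genes were called lower in dpMSC-like cells, beside 900 of all 7169 genes, and Ier2 fell by 1.40.

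**Figure D3:**
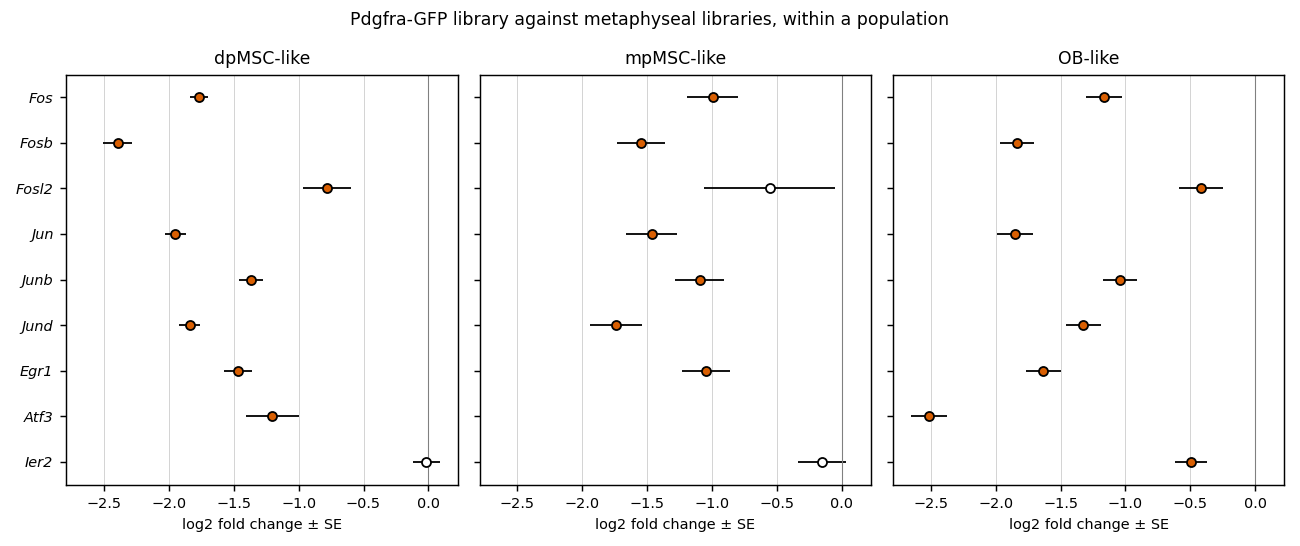
Log2 fold change of the Pdgfra-GFP library against both metaphyseal libraries in 3 populations, with bars of 1 SE. Orange points passed the threshold of 0.05 on the adjusted p and white ones did not; in dpMSC-like cells Fosb lay at -2.39 and Ier2 at -0.01.

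For a few genes the Pdgfra-GFP library lay above both metaphyseal libraries in some populations. Such genes made up a share of the members near or below that of all genes. Among genes of at least 20 CPM on average, the Pdgfra-GFP library lay below both metaphyseal libraries for 9 of 9 members in chondrocyte-like cells (48.1% of all such genes) for 9 of 9 in mural-like cells (38.6% of all) and for 9 of 9 in OB-like cells (66.2% of all). In dpMSC-like cells it was 7 of 7 (49.6% of all) and in mpMSC-like cells 6 of 7 (38.7% of all), with Ier2 the exception. The count was 7 of 8 in SC-like cells (37.9% of all), where Atf3 was the exception with 0, 221 and 31.7 CPM. In EC-like cells, with 314 cells in the Pdgfra-GFP library, it was 7 of 9 (53.3% of all). Junb and Ier2 were there above both metaphyseal libraries, as 39.3% of all such genes were. The Pdgfra-GFP library was sorted as GFP+. Whether its EC-like and haematopoietic cells are of a like kind to those of the metaphyseal libraries was not tested. In B-lineage-like cells the count was 2 of 5 (36.8% of all), with 2 above (38.0% of all). It was 6 of 10 in haematopoietic-like cells (37.2% of all) and 6 of 8 in granulocyte-like cells (25.6% of all), where Fosb and Junb lay above both (55.3% of all).

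The difference between preparations was itself compared between populations with an interaction term. For OB-like against dpMSC-like cells 6 of 9 genes passed, beside 11.0% of all 13502 genes tested (5.37% with a positive and 5.65% with a negative value). Fos differed by 0.63 (SE 0.07, adjusted p = 8.31e-08 in the quasi-likelihood test of edgeR, adjusted by Benjamini-Hochberg), and Fosb, Jund and Junb by 0.59, 0.55 and 0.37. A positive value means that the OB-like level relative to the dpMSC-like level was greater in the Pdgfra-GFP library, that is, the fall between preparations was smaller in OB-like cells. Atf3 (-1.28, SE 0.24) and Ier2 (-0.45, SE 0.10) had the opposite sign. For mpMSC-like against dpMSC-like cells 3 of 9 genes passed, beside 1.58% of all 13912 genes (0.827% positive and 0.755% negative). These were Fosb with 0.94 (SE 0.17), Fos with 0.86 (SE 0.13) and Jun with 0.58 (SE 0.14). DESeq2 gave these 9 values the same directions but called 0 of the 9 genes in either test, with 4 and 3 of the tested genes at an unadjusted p under 0.05 and lowest adjusted p-values, those of Fos, of 0.131 and 0.223. With cells of at most 2% mitochondrial UMIs the OB-like test called 4 genes, and Ier2 then stood at 0.39, the opposite sign. Without the library as a block only Fos was called in each test.

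Populations were compared over the 3 libraries with the library as a block, since the cells of a library share a suspension. In mpMSC-like against dpMSC-like cells 6 of 10 genes were lower, beside 11.2% of all 12936 genes that were lower (9.71% were higher and 20.9% called in all). Junb fell by 1.49 (SE 0.40), Jund by 1.34 (SE 0.26), Jun by 1.23 (SE 0.34), Egr1 by 1.17 (SE 0.36), Fos by 1.15 (SE 0.39) and Fosb by 1.09 (SE 0.37) on the log2 scale. The adjusted p of Jund was 2.60e-04 and that of Fosb 0.0344 in edgeR (quasi-likelihood, Benjamini-Hochberg adjustment). These 6 genes were chosen by that test, and in each of the same 3 libraries their mpMSC-like level was below the dpMSC-like level. The count of calls changed with the libraries kept. There were 2 genes (Junb and Jund) called without replicate 1, 1 (Jund) without replicate 2 and 6 without the Pdgfra-GFP library. In the same order 800 of all 13212, 801 of all 12996 and 1398 of all 10806 genes were called lower. Without the block edgeR called 0 of the 10, with 2 at an unadjusted p under 0.05 and a lowest adjusted p, that of Junb, of 0.0669.

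Septoclasts are mononuclear cells that resorb cartilage at the growth plate. In SC-like against mpMSC-like cells 2 of 10 genes were higher, beside 1.94% of all 12936 genes (2.28% were lower and 4.22% called in all). Atf3 rose by 2.94 (SE 0.70, adjusted p = 0.00969 in the quasi-likelihood test of edgeR, adjusted by Benjamini-Hochberg) and Ier2 by 1.10 (SE 0.31). Atf3 was at 0, 221 and 31.7 CPM in SC-like cells and 8.55, 0 and 5.61 CPM in mpMSC-like cells. In metaphyseal replicate 1 the SC-like count was 0 of 119459 UMIs, and its limit of 3 UMIs lies above the mpMSC-like level. That library thus shows no direction for Atf3. Ier2, chosen by the same test on these libraries, was at 385, 343 and 278 CPM in SC-like cells. In mpMSC-like cells Ier2 was at 176, 108 and 126 CPM. Atf3 alone was called without metaphyseal replicate 1, and neither gene was called without metaphyseal replicate 2, without the Pdgfra-GFP library or without the block. In those 3 edgeR fits 2, 5 and 2 of the 10 genes had an unadjusted p under 0.05, with lowest adjusted p-values of 0.188, 0.0589 and 0.0972. The metaphyseal SC-like sums held 11 and 10 cells.

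In OB-like against dpMSC-like cells 3 of 10 genes were higher, beside 25.5% of all genes that were higher and 24.1% that were lower. Atf3 rose by 3.56 (SE 0.51), Ier2 by 1.51 (SE 0.29) and Fosl2 by 1.50 (SE 0.23). The 3 AP-1 genes with the highest levels in these cells, Fos, Jun and Jund, had log2 fold changes of 0.80, 0.22 and 0.23 that did not pass. Fold changes were scaled between sums by TMM, a correction for RNA composition that CPM lacks. By CPM Jun was lower in OB-like cells in every library, at 917, 717 and 176 against 1268, 1178 and 281. Jund was lower too, at 797, 681 and 230 against 1284, 1182 and 306 CPM. So was Junb, at 609, 528 and 215 against 978, 861 and 316 CPM, with a log2 fold change of 0.17 that did not pass. Fos was lower by CPM in both metaphyseal libraries, at 1799 and 1746 against 1984 and 1908. In the Pdgfra-GFP library Fos was higher, at 615 against 507 CPM. The signs for Jun, Junb and Jund, and the sizes of the called rises, thus depended on this scaling. The interaction values were scaled by TMM too. In EC-like against dpMSC-like cells Fosl2, Atf3 and Ier2 were higher, by 2.01 (SE 0.23), 1.31 (SE 0.51) and 1.30 (SE 0.29), beside 21.0% of all genes that were higher. Egr1 fell by 2.26 (SE 0.38) and Jund by 0.89 (SE 0.26), beside 26.7% of all genes. The 3 of 10 members called in the OB-like comparison stood beside 49.6% of all genes called, and the 5 of 10 in the EC-like comparison beside 47.8%. In the EC-like comparison 3 of 10 genes were called without metaphyseal replicate 2 or without the block.

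**Figure D4:**
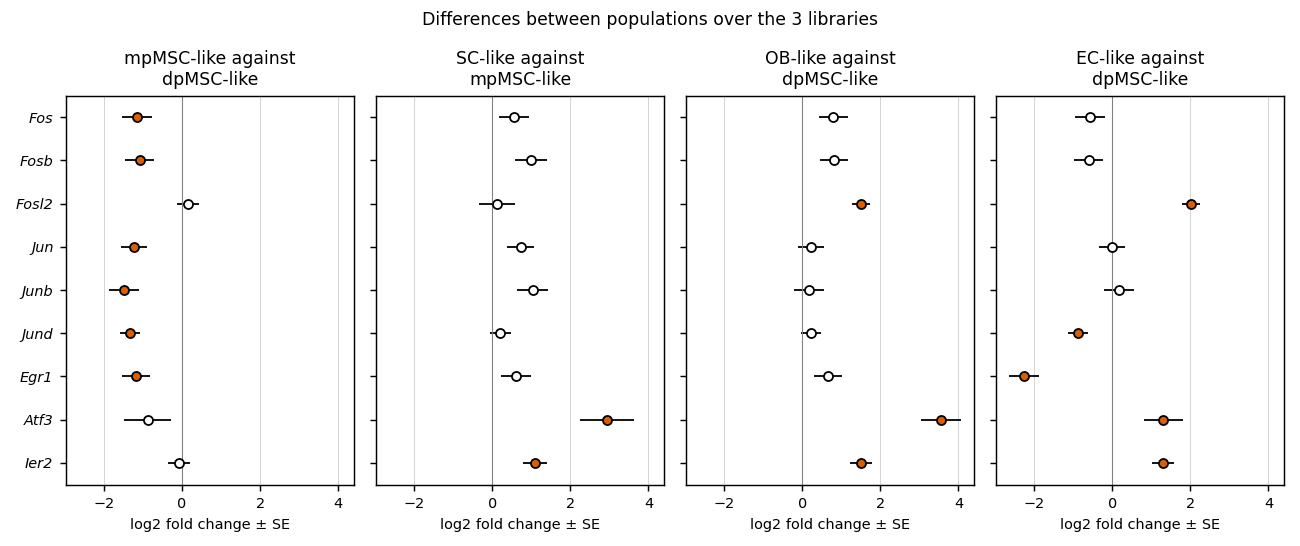
Log2 fold change between populations over the 3 libraries for 9 of the genes, with bars of 1 SE and orange points past the threshold of 0.05 on the adjusted p. Atf3 in OB-like against dpMSC-like cells lay at 3.56 and Junb in mpMSC-like against dpMSC-like cells at -1.49.

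Other genes of the response were read from fixed lists, beside 22.6%, 14.1% and 8.86% of all genes that were lower and 24.8%, 19.0% and 9.03% that were higher in the Pdgfra-GFP library in dpMSC-like, OB-like and mpMSC-like cells. In dpMSC-like cells 16 of 20 other immediate early genes tested were lower in the Pdgfra-GFP library, with a median log2 fold change of -0.95 against -0.02 over all genes. The examples of highest level were Ccn2 (-2.47), Ccn1 (-0.96), Btg2 (-1.67) and Socs3 (-0.65). In OB-like cells 19 of 21 were lower, and in mpMSC-like cells 5 of 17 were lower. Feedback regulators restrain such responses, some of them by removing phosphates or degrading RNA. In dpMSC-like cells 10 of 14 were lower, among them Dusp1 (-0.73), Zfp36 (-1.44) and Zfp36l1 (-0.53), with 1, Nfkbia (0.42), higher. In OB-like cells 6 of 13 were lower. Of the upstream kinases and factors 4 of 13 were lower and 1 higher in dpMSC-like cells, with a median of -0.17, and Creb1 at -0.51 was among those lower.

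Heat shock genes did not move as a group in dpMSC-like cells, with 4 of 10 lower and 5 higher. Hspa1a, an inducible chaperone, had a log2 fold change of -3.62, which is uncertain since its near-identical copy Hspa1b may take part of its reads, while Hsp90ab1 (0.28), Hspa8 (0.38) and Hsp90aa1 (0.30) were higher. In OB-like cells 7 of 10 were lower and 1 was higher. Of the AP-1 dimer partners 3 of 9 were lower and 1 higher in dpMSC-like cells, with a median log2 fold change of -0.08. In OB-like cells 3 of 9 were lower, and in mpMSC-like cells 2 of 7. Jdp2, whose protein also pairs with Jun, was lower in all 3 populations. Its log2 fold changes were -3.05, -2.68 and -2.96 in dpMSC-like, OB-like and mpMSC-like cells. Of the AP-1 target genes in bone, 4 of 10 were higher and 1 was lower in dpMSC-like cells of the Pdgfra-GFP library, and the higher ones included Spp1 (1.02), Mmp9 (1.58) and Timp1 (1.35). In OB-like cells 4 of 9 were higher and 2 lower, whereas in mpMSC-like cells 3 of 7 were lower. In mpMSC-like against dpMSC-like cells, where 11.2% of all genes were lower and 9.71% higher, 10 of 21 other immediate early genes were lower and 1 higher, and 9 of 14 feedback regulators were lower, among them Zfp36 (-1.88) and Dusp1 (-1.83). AP-1 targets in bone were higher for 5 of 11 and lower for 2 in that comparison. In SC-like against mpMSC-like cells 4 of 14 feedback regulators were higher, beside 1.94% of all genes, whereas edgeR called 0 of 21 other immediate early genes, of which 4 had an unadjusted p under 0.05. Their median log2 fold change was 0.69 against -0.14 over all genes.

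The mitochondrial share of cells moved with the 10 genes within libraries. In dpMSC-like cells of metaphyseal replicate 1 the pooled share of UMIs from the 10 genes was 0.908%, 0.616% and 0.431% in the lowest, middle and highest tertile of cells by mitochondrial share. In replicate 2 it was 0.963%, 0.525% and 0.345%, and in the Pdgfra-GFP library 0.251%, 0.158% and 0.136%. The share in dpMSC-like cells thus fell with rising mitochondrial share within each library, whereas across preparations the metaphyseal libraries were higher on both measures. The lowest tertiles of the metaphyseal libraries had median mitochondrial shares of 2.25% and 2.39%, and the highest of the Pdgfra-GFP library 1.20%. In EC-like cells the share also fell at each step, from 0.535% to 0.227%, from 0.461% to 0.243% and from 0.331% to 0.255% between the lowest and the highest tertile. The fall was not steady in every case, since OB-like cells of replicate 2 had 0.599%, 0.420% and 0.428% and mpMSC-like cells of replicate 1 had 0.365%, 0.172% and 0.254%. In both of those the lowest tertile still held the highest share. The part of RNA quality in the differences between preparations was not tested.

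**Figure D5:**
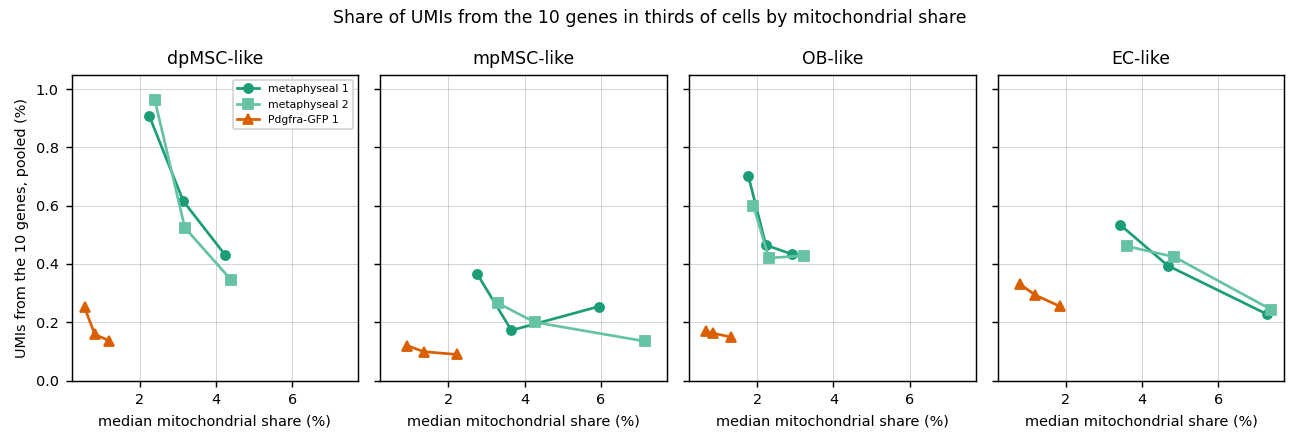
Pooled share of UMIs from the 10 genes, in percent, against the median mitochondrial share of the cells, in percent, for tertiles of cells by mitochondrial share in 4 populations. Each line is a library with 3 points; in dpMSC-like cells the 3 lines run from 0.908% to 0.431%, from 0.963% to 0.345% and from 0.251% to 0.136%.

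Across 25 sums of a library and population with at least 30 cells, Fos and Fosb had the most alike levels among the 10 genes, with a Pearson r of 0.934 on log2(CPM + 10), followed by Jun and Junb with 0.901 and Fosb and Egr1 with 0.894. Fos and Jund were less alike, with 0.365. These sums share libraries, depth and free RNA, so the values are a description. The genes most like Junb were Zfp36 (r = 0.909), Dusp1 (0.858) and Gadd45b (0.845), followed by Pi4k2a and Ifrd1. Those most like Fos were Gm26532 (0.885), Furin (0.855), Atp2b1, Plod3 and Tbc1d23. The genes most like Jund were Ube2m (0.856), Rab21 (0.849), Ppp2ca, Acbd3 and Kcnq1ot1.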

How the data were processed

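Per the labels and the methods of the study, the authors trimmed reads with fastp (version 0.20), aligned them with STARsolo (STAR 2.7.3a, named in the submitters' processing notes) to mm10 with Gencode M23 plus H2B-GFP, and deposited unfiltered UMI counts per barcode and gene. The labels name the Chromium kit as V2 or V3 and the methods as V3. Barcodes with at least 1500 (metaphyseal) or 1000 (Pdgfra-GFP) genes were kept here if mitochondrial UMIs were no more than 15% and ribosomal UMIs no more than 30%. EmptyDrops was not run here. Gene positions come from Gencode M21, and promoters from RefSeq tables of GRCm38.p6.

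Each cell was given the population whose markers, scaled to the 20 highest cells and averaged, scored highest by a margin of 0.02, with at least 3 markers detected and the 10 genes left out. Ungated cells were left out of the comparisons. Scrublet called 234 doublets (25, 17 and 192 by library), which were kept. Counts were summed per library and population of at least 10 cells, since cells are not replicates, and tested with edgeR 4.0.16 (R 4.3.3; filterByExpr, TMM, quasi-likelihood F-test, Benjamini-Hochberg adjustment over all genes tested, threshold 0.05), with the library as a block between populations. Cells of a library share a suspension. Deviations of 2 populations of a library from their means over all libraries correlated with r from 0.489 to 0.807. These deviations hold the difference between preparations, so they do not tell a shared suspension from a shared preparation. The metaphyseal replicates differed by more than counting noise of independent UMIs, with chi-square per degree of freedom from 2.22 to 4.58. UMIs of a cell are not independent, so this does not tell a difference between replicates from the sampling of cells. Preparation contrasts have 1 residual degree of freedom, so their spread is largely borrowed across genes. DESeq2 1.42.0 was an alternative, with RLE size factors, no filter on low counts, other cell filters, doublet removal, a wider gate, clusters (scanpy 1.11.5, Python 3.11.15) and each library left out. Code was tested on simulated data.

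All 10 genes are named whatever their result. From each list the called genes of highest mean CPM, at most 4, are named, and for likeness the 5 genes of highest r with Fos, Junb and Jund. The members and lists were chosen with earlier results of these data known. Intervals are exact, the limit for a count of 0 is 3 UMIs, and both cover counting error only.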

Additional observations from a re-analysis of the deposited data

Results flagged for a closer look

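The difference between the Pdgfra-GFP and metaphyseal libraries was not the same size in every population, by the interaction term of edgeR's quasi-likelihood test. In OB-like against dpMSC-like cells the difference itself passed the threshold for Fos (0.63 on the log2 scale), Fosb (0.59), Jund (0.55) and Junb (0.37), whose fall was smaller in OB-like cells. It also passed for Atf3 (-1.28) and Ier2 (-0.45), whose fall was larger in OB-like cells. In mpMSC-like against dpMSC-like cells it passed for Fosb (0.94), Fos (0.86) and Jun (0.58), whose fall was smaller in mpMSC-like cells. DESeq2 called 0 of the 9 genes in either test, with 4 and 3 at an unadjusted p under 0.05, and gave the same directions.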

How the results depend on the processing

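The test without the block, which ignores that populations of 1 library share a suspension, called 3 of 10 members in the OB-like comparison, 0 in mpMSC-like against dpMSC-like (1284 genes in all), 0 in SC-like against mpMSC-like (180 genes), 3 in EC-like against dpMSC-like and 4070 genes in the OB-like comparison, and Fosl2 in mpMSC-like cells stood at -0.022. The interaction tests, which have the library as a block, called 1 member (Fos) each without it, and 430 and 73 genes. No paired analysis was possible because the Pdgfra-GFP preparation has 1 library, for the contrasts between preparations.

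Between populations, OB-like against dpMSC-like cells called 3 members, 5 with named clusters and 6 with at least 30 cells, and 6418 genes, 3843 at 2% mitochondrial UMIs (a limit chosen after seeing the data). The mpMSC-like comparison called 6 members and 2706 genes, 1 and 489 at 2% (where the metaphyseal libraries kept 2 and 0 mpMSC-like cells and only the Pdgfra-GFP library gave a sum), and 1 to 6 and 1521 to 2530 with 1 library left out. The SC-like comparison called 2 members, 1 at 5% mitochondrial UMIs, 1 with the wider gate, 0 with named clusters, at 2% or with at least 30 cells (3, 1 and 3 at an unadjusted p under 0.05 in edgeR), settings in which SC-like cells of the Pdgfra-GFP library alone remained, and 0 to 1 with 1 library left out. Its 546 genes became 337 at 5%, 144 with clusters, 60 at 2% and 107 to 318 with 1 library left out. The EC-like comparison called 5 members, 3 to 7 with 1 library left out, and 6183 genes, 2529 at 2%, where metaphyseal replicate 2 kept 7 EC-like cells and gave no sum. Between preparations DESeq2 called 1890 genes in dpMSC-like, 150 in mpMSC-like and 646 in OB-like cells. In the same order edgeR called 6143, 1581 and 3771 genes. The 2% limit gave 1985 and 1642 genes in dpMSC-like and OB-like cells, and 5% gave 1027 in mpMSC-like cells. The interaction tests, whose alternatives were chosen after seeing the data, called 6 and 3 members, 0 and 0 by DESeq2, and 1488 and 220 genes, 102 and 18 by DESeq2, 139 at 2% for OB-like and 138 (wider gate) and 140 (clusters) for mpMSC-like cells. At 2% the mpMSC-like preparation contrast and its interaction could not be fitted for want of cells. At 5% the metaphyseal libraries kept 9 and 9 SC-like cells, under the minimum of 10, so there too the Pdgfra-GFP library alone gave an SC-like sum. With the wider gate metaphyseal replicate 1 kept 8 SC-like cells and gave no sum.

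Log2 fold changes of members changed sign as follows. In OB-like against dpMSC-like cells Jun, Junb and Jund stood at -0.19, -0.37 and -0.23 at 2%, and Jund ran from -0.042 (without the Pdgfra-GFP library) to 0.34 with 1 library left out. In mpMSC-like against dpMSC-like cells Atf3 stood at 1.24 and Ier2 at 0.34 with clusters, and with 1 library left out Fosl2 ran from -0.064 (without the Pdgfra-GFP library) to 0.21 and Ier2 from -0.24 to 0.087 (without metaphyseal replicate 2). In SC-like against mpMSC-like cells Fosl1 stood at 0.046 in DESeq2 and 1.51 with clusters, and Jund at -0.070 (5%), -0.051 (clusters), -0.045 (2%), -0.20 (30 cells) and from -0.12 (without metaphyseal replicate 2) to 0.42 with 1 library left out. In EC-like against dpMSC-like cells Fosl1 stood at 1.59 with clusters and ran from -2.92 to 0.27 (without the Pdgfra-GFP library) with 1 library left out, Junb stood at -0.55 (2%) and ran from -0.29 (without the Pdgfra-GFP library) to 0.56, and Jun, at -0.0019 in the test as reported, stood at 0.080 (RLE), 0.080 (DESeq2), 0.15 (no filter), 0.051 (1500 genes), 0.18 (5%), 0.0093 (wider gate), 0.16 (clusters), 0.088 (30 cells), and from -0.21 to 0.28 with 1 library left out, where the positive values were those without a metaphyseal replicate. Between preparations Ier2 in dpMSC-like cells stood at 0.045 with no filter. With 1 metaphyseal library left out, a ratio with no test, Ier2 ran from -0.060 to 0.00064 in dpMSC-like and from -0.41 to 0.27 in mpMSC-like cells. In the interaction tests Egr1 and Ier2 stood at 0.66 and 0.39 at 2% (OB-like), and Jund and Atf3 at -0.18 and -1.53 with clusters and Ier2 at 0.050 with 1500 genes (mpMSC-like). Of these only Ier2 in the OB-like interaction had been called. The causes were not tested.

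The other member values kept their direction. Over all tested alternatives, counting each gene under each and those that changed sign too, direction and side of the threshold were both kept in 129 of 140 values for OB-like against dpMSC-like cells, 113 of 140 for mpMSC-like against dpMSC-like, 118 of 140 for SC-like against mpMSC-like and 117 of 140 for EC-like against dpMSC-like. Between preparations this held for 77 of 81, 62 of 63 and 73 of 81 in dpMSC-like, mpMSC-like and OB-like cells, and for 64 of 80 and 58 of 70 in the interaction tests. The metaphyseal SC-like sums rest on 11 and 10 cells, and the Pdgfra-GFP preparation on 1 library.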
